A study of Arabidopsis thaliana with 12 samples.

Results

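The genes described here are the Aux/IAA family and 8 GH3 genes of *Arabidopsis thaliana*, 37 genes among the 37336 rows of a leaf RNA-seq table. They were taken by gene ID, 29 Aux/IAA genes (*IAA1* to *IAA20* and *IAA26* to *IAA34*) and 8 GH3 genes (*GH3.1*, *GH3.2*, *GH3.3*, *GH3.4*, *GH3.5*, *GH3.6*, *GH3.9* and *GH3.17*). No filter on measured values was applied, but earlier results of these data were known when the genes were chosen. The libraries form 4 groups of 3, *rtnlb16-1* LD, Col-0 LD, *rtnlb16-1* CLL and Col-0 CLL. Col-0 is the wild-type accession, and *rtnlb16-1* is 1 T-DNA insertion line in the reticulon-like gene *RTNLB16*, with a deletion at the insertion site. A further insertion between genes elsewhere was segregated away before the later analyses, as the study states. The study reads *rtnlb16-1* as lacking one splice variant and overexpressing the rest, which it ascribes to an enhancer on the insertion. The gene-level counts used here do not separate the variants. LD (long day) plants had 16 h of light and 8 h of dark at 80 µmol m−2 s−1, and CLL (continuous low light) plants had 24 h of light at 50 µmol m−2 s−1. One field of the labels gives the LD hours the other way round. Each library came from mature leaves of 4-week-old soil-grown plants, pooled from at least 3 plants.

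Auxin acts on transcription by removing repressors. Aux/IAA proteins are short-lived nuclear proteins that bind auxin response factors (ARFs) and bring the TOPLESS corepressor to their target genes. Auxin joins an Aux/IAA protein to the TIR1/AFB receptors through a degron in the protein, which is then ubiquitinated and degraded, and the ARF is freed. Many Aux/IAA genes and a group of GH3 genes are themselves early targets of this response, and the GH3 enzymes couple auxin to amino acids, which lowers the free hormone. Both families are therefore widely used as transcript readouts of auxin response, and in shade or warmth the same genes are known as targets of the PIF transcription factors.

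The degron is shown first, because it is the sequence through which an Aux/IAA protein is removed. Its core, the residues GWPP, was found in 23 of the 29 Aux/IAA proteins translated from the RefSeq gene models (TAIR10.1 assembly), in none of the 8 GH3 proteins and in 0.124% of 27444 annotated proteins. The 6 Aux/IAA proteins without it were *IAA20*, *IAA30*, *IAA31*, *IAA32*, *IAA33* and *IAA34*. The LxLxL repression motif, which binds TOPLESS, was in 28 of 29, the exception being *IAA33*, and in 27.1% of all proteins. Below are 30 bases of coding sequence from the plus or minus strand as each gene is read, with the 12 bases that encode GWPP in capitals. The first 4 belong to the genes that differed most steadily between the genotypes, and the last 2 to abundant genes that were not called different.
*IAA29* at chr4:15583942-15583971, plus strand: gaagttgttGGATGGCCACCAgtaaaaaca
*IAA6* at chr1:19673323-19673352, minus strand: caagcggtgGGATGGCCACCTgtgtgttct
*IAA19* at chr3:5264307-5264336, plus strand: caggtggtgGGGTGGCCACCGgtttgttct
*IAA5* at chr1:5366275-5366304, minus strand: caagttgtgGGTTGGCCACCGgtttgttcg
*IAA8* at chr2:9637725-9637754, plus strand: caggttgttGGTTGGCCTCCAatcagatca
*IAA16* at chr3:1289730-1289759, minus strand: caagttgtgGGATGGCCACCGgtacgatct
Each stretch lies within 1 annotated coding exon. The 6 were drawn from genes that encode the core, so they share its 4 residues by choice, and within the capitals they differ only in silent bases.

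In the promoters, 3 short motifs were searched on both strands of the window from 250 bases before to 50 bases after each gene start, TGTCTC and TGTCGG (bound by ARFs) and CACGTG (the G-box, bound by PIFs among others). TGTCTC and TGTCGG begin alike but cannot match at the same place, and CACGTG reads the same on both strands. TGTCTC was present in 12 of 29 Aux/IAA windows and 4 of 8 GH3 windows, against 14.2% of 27443 gene windows. TGTCGG was in 6 of 29 and 0 of 8, against 5.12%, and CACGTG in 5 of 29 and 1 of 8, against 7.68%. *IAA19* held TGTCTC 3 times and CACGTG once, and *IAA5* held TGTCGG 2 times and TGTCTC once. Stretches of 30 bases are given as each gene is read, with the motif (or its reverse complement GAGACA or CCGACA) in capitals, for genes whose level differed between the genotypes under LD.
*IAA19* at chr3:5263805-5263834, plus strand: gcaccaaacttaTGTCTCtcatgtgaccga
*IAA19* at chr3:5263844-5263873, plus strand: cctcagttgaccTGTCTCtgcccccacttt
*IAA6* at chr1:19673814-19673843, minus strand: ggacccaacataTGTCTCtcatgtgaccga
*IAA1* at chr4:8360849-8360878, plus strand: acgcaactggcgGAGACAaatcaggaccgt
*IAA5* at chr1:5366706-5366735, minus strand: gaaaccctacttTGTCGGtaacaaaatcgt
*GH3.2* at chr4:17579462-17579491, plus strand: gtgggtcccttaTGTCTCcattaactaaca
*GH3.5* at chr4:13653520-13653549, plus strand: tcttccttattgTGTCTCtactctctactt
The windows of *IAA6* and *IAA19*, 2 close family members, share a run of 20 bases around the motif, taTGTCTCtcatgtgaccga. *IAA29*, *IAA3*, *IAA4*, *IAA17*, *GH3.6* and *GH3.17* had no match to any of the 3 motifs in this window, which says only that these letters are not there.

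The libraries held 25954730 to 44747661 assigned reads, and the values below are normalized counts, that is reads divided by the size factor of the library. *RTNLB16* had 7577 to 12665 normalized counts in *rtnlb16-1* LD, against 769 to 1016 in Col-0 LD, and 1543 to 2252 in *rtnlb16-1* CLL, against 640 to 954 in Col-0 CLL, so the genotypes did not overlap in either light regime. Libraries 68 and 69 of *rtnlb16-1* CLL were nearly alike. Their chi-square per gene was 1.87 over 18540 genes (1 is sampling noise), against 28.9 to 206 in the other 11 pairs within groups. The limma fit pools 1 estimate of the spread over all libraries, so its calls are also given with these 2 merged. The 5 leaf markers were abundant in every library, while the 12 shoot meristem and flower markers summed to 764 to 1459 normalized counts in *rtnlb16-1* LD, 81.5 to 100.1 in Col-0 LD, 572 to 774 in *rtnlb16-1* CLL, and 406, 44.7 and 237 in Col-0 CLL libraries 65, 66 and 67. The 3 root markers summed to at most 7.4 in any library. LD and CLL differ in day length and in light intensity and have separate library numbers, so these cannot be told apart. In bulk leaf RNA, fewer cells of a type and less RNA per cell cannot be told apart either.

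All 37 members had reads, and 31 reached 10 normalized counts in at least 3 libraries. The 6 that did not were *IAA15*, *IAA20*, *IAA31*, *IAA33*, *GH3.1* and *GH3.4*, the last of which had reads in 1 Col-0 LD library only. Per kilobase of exon the family spanned a wide range, and a few genes held most of it. In *rtnlb16-1* LD the highest were *IAA8* (4294 normalized counts per kilobase), *IAA16* (3422), *IAA17* (2994) and *IAA9* (2118), and in Col-0 LD *IAA17* (7821), *IAA8* (4999), *IAA7* (3327) and *IAA9* (2792). In *rtnlb16-1* CLL they were *IAA8* (2759), *IAA9* (2441), *IAA16* (1936) and *IAA7* (1761), and in Col-0 CLL *IAA8* (3305), *IAA9* (3072), *IAA7* (1968) and *IAA16* (1201). Neighbours in these orders overlapped in places, *IAA8* and *IAA16* or *IAA17* in *rtnlb16-1* LD and *IAA8* and *IAA9* in Col-0 CLL among them, so their rank is not fixed by 3 libraries. The summed Aux/IAA level was 15001 to 20786 per kilobase in *rtnlb16-1* LD, against 25463 to 36198 in Col-0 LD, and 13927 to 14993 in *rtnlb16-1* CLL, against 14527 to 16697 in Col-0 CLL. Under LD the sums did not overlap, and under CLL they did. *IAA17* made up 15.9% of that sum in *rtnlb16-1* LD, against 25.8% in Col-0 LD (means of 3 libraries), and 3.34% in *rtnlb16-1* CLL, against 3.72% in Col-0 CLL. The GH3 genes were far lower, with summed levels of 654 to 914 per kilobase in *rtnlb16-1* LD, against 195 to 351 in Col-0 LD, and 555 to 797 in *rtnlb16-1* CLL, against 135 to 469 in Col-0 CLL. *GH3.6* was the largest part of them in each group of *rtnlb16-1*, 61.9% under LD and 51.9% under CLL, while in Col-0 LD *GH3.9* and *GH3.6* overlapped, at 31.7% to 44.2% and 31.4% to 36.5%.

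**Figure D1:**
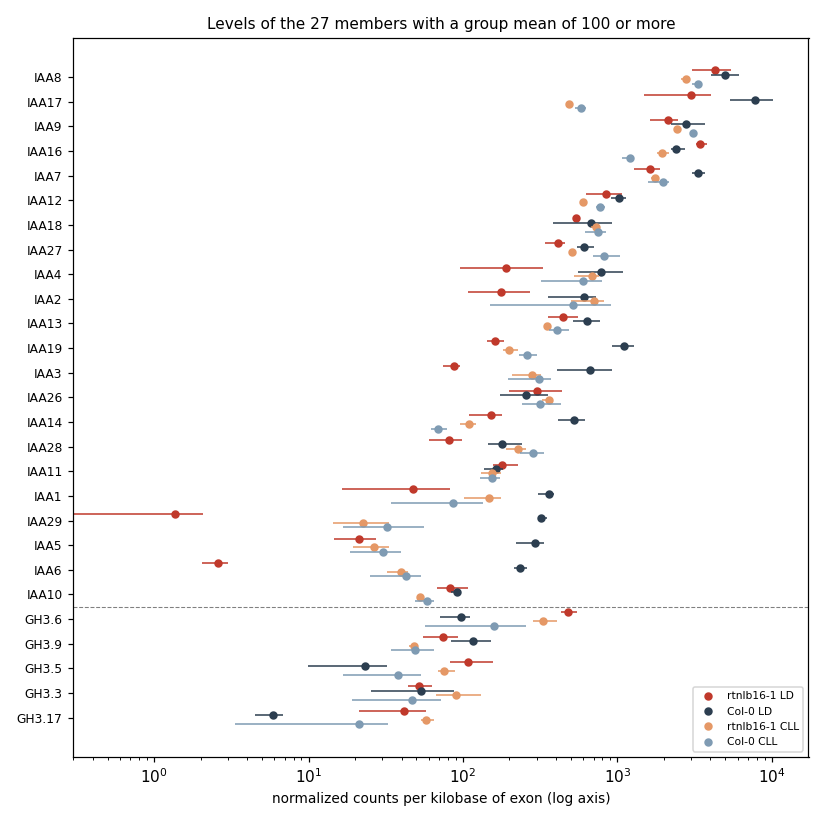
Mean normalized counts per kilobase of exon (log axis) of the 27 members with a group mean of at least 100, one colour per group of 3 libraries, with a line from the lowest to the highest library (a line that meets the left edge ends at 0). *IAA17* reaches 7821 per kilobase in Col-0 LD, and *IAA29* and *IAA6* lie at 1.36 and 2.61 in *rtnlb16-1* LD.

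Under LD the 2 families moved in opposite directions between the genotypes. In *rtnlb16-1* 12 of 29 Aux/IAA genes were lower than in Col-0 and none higher, and 4 of 8 GH3 genes were higher and none lower, called by limma where the log2 fold change exceeded 1 in size with an adjusted p (Benjamini-Hochberg over all genes) under 0.01. Of all 30388 genes tested, 5.41% were called lower and 6.0% higher in this comparison. The median log2 fold change was -0.56 over the Aux/IAA genes and 2.14 over the GH3 genes, against 0 over all genes tested. Among the Aux/IAA genes the fold changes ran from -7.46 to 1.69, and 23 of 29 were negative.

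*IAA29* (AT4G32280), known as a shade- and PIF-induced gene of stem elongation, showed the widest gap. It had 2.6, 2.6 and 0 normalized counts in *rtnlb16-1* LD, against 393, 447 and 400.5 in Col-0 LD. These are 5 reads against 821 in all, so that the Col-0 level was 226 times that of *rtnlb16-1* (95% counting interval 96.6 to 699, counting error only). The log2 fold change was -7.46 (standard error 0.57, adjusted p = 8.55e-07 from limma). *IAA29* was thus close to undetected in 3 of 3 *rtnlb16-1* libraries and easily detected in 3 of 3 Col-0 libraries.

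*IAA6* (AT1G52830), *IAA5* (AT1G15580) and *IAA19* (AT3G15540) form 1 branch of the family, and all 3 fell. *IAA6* had 2.6, 1.8 and 2.4 normalized counts in *rtnlb16-1* LD, against 223, 183 and 199 in Col-0 LD, which is 6 reads against 405 and a ratio of 93.0 for Col-0 over *rtnlb16-1* (95% counting interval 42.4 to 255). *IAA5* had 16.8, 11.4 and 21.4 in *rtnlb16-1* LD, against 173, 260 and 250 in Col-0 LD. *IAA19*, also known as MSG2 and needed for phototropic bending, had 161, 143 and 187 in *rtnlb16-1* LD, against 932, 1145 and 1284 in Col-0 LD. In all 3 genes the genotypes were apart in each library, with log2 fold changes of -5.97 for *IAA6* (standard error 0.40), -3.72 for *IAA5* (standard error 0.41) and -2.76 for *IAA19* (standard error 0.20). Together with *IAA29* they were the 4 Aux/IAA genes called under LD in each of the 21 other fits run.

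The branch of *IAA1*, *IAA2*, *IAA3* and *IAA4* was lower as well. *IAA1* (AT4G14560), the founding auxin-induced member, had 15.5, 78.2 and 40.5 normalized counts in *rtnlb16-1* LD, against 289, 368 and 365 in Col-0 LD. *IAA3* (AT1G04240), known as SHY2 and as a brake on root meristem growth, had 101, 126 and 130 in *rtnlb16-1* LD, against 902, 551 and 1241 in Col-0 LD. *IAA4* (AT5G43700) had 129, 449 and 195 in *rtnlb16-1* LD, against 961, 758 and 1474 in Col-0 LD. For each of these 3 the highest *rtnlb16-1* library stayed under the lowest Col-0 library, and the log2 fold changes were -3.16, -2.84 and -2.18 (standard errors 0.54, 0.31 and 0.42). *IAA2* had 147, 368 and 196 in *rtnlb16-1* LD, against 483, 992 and 992 in Col-0 LD, and was not called by limma (log2 fold change -1.82, adjusted p = 0.0225), though edgeR called it. Within the groups the 4 genes shared their lowest library in 3 of 4 cases, library 50 in *rtnlb16-1* LD, library 70 in *rtnlb16-1* CLL and library 65 in Col-0 CLL.

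In the branch of *IAA7*, *IAA14*, *IAA16* and *IAA17*, whose stabilised forms are classic auxin-resistant mutants, 3 of 4 fell. *IAA14* (AT4G14550), the SOLITARY-ROOT gene of lateral root formation, had 339, 206 and 308 normalized counts in *rtnlb16-1* LD, against 775, 1165 and 1008 in Col-0 LD (log2 fold change -1.80). *IAA17* (AT1G04250), known as AXR3, had 5282, 1962 and 4586 in *rtnlb16-1* LD, against 7025, 10396 and 13481 in Col-0 LD (log2 fold change -1.46). *IAA7*, known as AXR2, had 3618, 2439 and 3292 in *rtnlb16-1* LD, against 5804, 6208 and 7034 in Col-0 LD, and its log2 fold change of -1.04 lay just past the limit of 1. *IAA16* went the other way in all libraries, with 6498, 7648 and 6644 in *rtnlb16-1* LD, against 4551, 5515 and 4502 in Col-0 LD, a log2 fold change of 0.52 that was not called (adjusted p = 0.0407 from limma). All 4 are abundant, each above 100 normalized counts in all 12 libraries.

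Outside these branches, 2 more Aux/IAA genes were lower. *IAA28*, known from a mutant short of lateral roots, had 83.9, 136 and 118 normalized counts in *rtnlb16-1* LD, against 203, 211 and 333 in Col-0 LD (log2 fold change -1.13). *IAA34*, which lacks the degron core, had 5.2, 2.6 and 0 in *rtnlb16-1* LD, against 21.5, 17.6 and 16.5 in Col-0 LD (log2 fold change -2.78), 7 reads against 37, and its annotated span overlaps another gene on the same strand. The branches of *IAA8*, *IAA9* and *IAA27* and of *IAA10*, *IAA11*, *IAA12* and *IAA13*, which hold the abundant genes *IAA8* and *IAA9* and the embryo patterning gene *IAA12*, had no called member under LD, with log2 fold changes between -0.56 and 0.12. Likewise *IAA18*, *IAA26* and *IAA30* lay between -0.21 and 0.22. *IAA15*, *IAA20*, *IAA31*, *IAA32* and *IAA33*, whose group means were at most 11 normalized counts, ran from -1.50 to 1.69 without a call. Of the 23 Aux/IAA genes that encode the degron core 11 were lower, and of the 6 that do not 1 was, and 6 of the 12 with TGTCTC in the promoter window were lower, as were 6 of the 17 without.

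**Figure D2:**
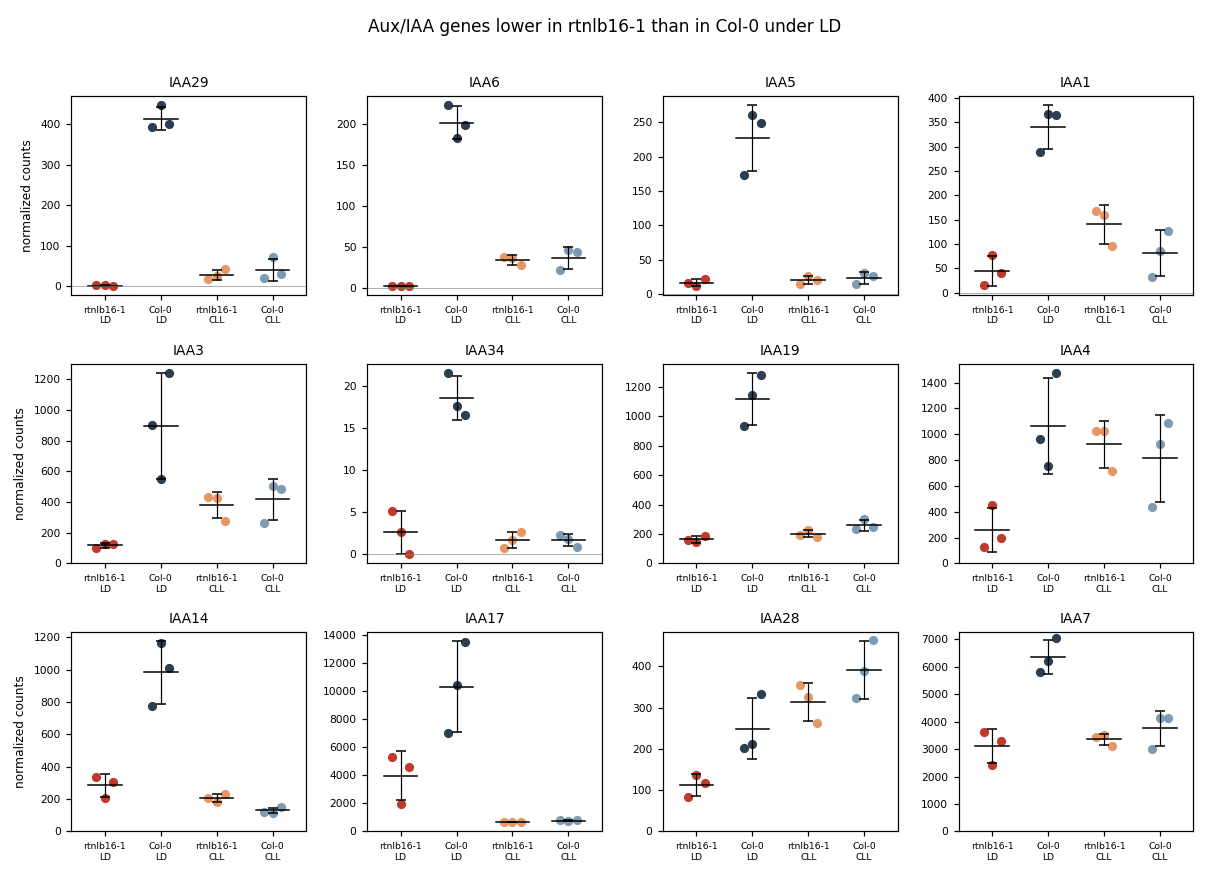
Normalized counts (linear axes) of the 12 Aux/IAA genes called lower in *rtnlb16-1* under LD, by library, with bars at the group mean ± SD (n = 3). The genes were picked by this call, and for each the 3 *rtnlb16-1* LD points lie below the 3 Col-0 LD points. The 2 CLL groups overlap except in *IAA14*, *IAA17* and *IAA19*, and limma called no gene between them.

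The 4 GH3 genes called higher in *rtnlb16-1* under LD were *GH3.6*, *GH3.5*, *GH3.17* and *GH3.2*. *GH3.6* (AT5G54510), known as DFL1 from a dwarf light-grown mutant, had 1005, 1037 and 1268 normalized counts in *rtnlb16-1* LD, against 250, 259 and 165 in Col-0 LD (log2 fold change 2.31, standard error 0.40, adjusted p = 8.29e-04 from limma). *GH3.5* (AT4G27260), or WES1, had 194, 194 and 368 in *rtnlb16-1* LD, against 64.4, 75.6 and 23.3 in Col-0 LD (log2 fold change 2.28, standard error 0.48). *GH3.17* (AT1G28130), which conjugates auxin to glutamate, had 58.1, 157 and 127 in *rtnlb16-1* LD, against 18.6, 17.6 and 12.3 in Col-0 LD (log2 fold change 2.65, standard error 0.65). None of the 3 genes overlapped between the genotypes. *GH3.2* (AT4G37390), also BRU6, had 34.8, 43.1 and 57.1 in *rtnlb16-1* LD, against 5.7, 1.8 and 0 in Col-0 LD, 124 reads against 5, which is a ratio of 18 (95% counting interval 7.51 to 56.4).

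The other 4 GH3 genes were not called by limma. *GH3.3* had 92.9, 106 and 133 normalized counts in *rtnlb16-1* LD, against 100.1, 185 and 53.5 in Col-0 LD, a log2 fold change of 0.13 (adjusted p = 0.986 from limma). *GH3.9* had 160.0, 272 and 217 in *rtnlb16-1* LD, against 445, 325 and 246 in Col-0 LD (log2 fold change -0.64, adjusted p = 0.147). *GH3.1* had 9 reads in all in *rtnlb16-1* LD (6.5, 0.9 and 3.6 normalized counts), against 0 in each Col-0 LD library, too few for a fold. Its adjusted p of 0.0107 from limma lay just above the threshold of 0.01, and it was called higher with a pseudocount of 0.5 and without library 51, with fitted values of 0.74 to 4.89 over the other fits. *GH3.4* had 0 in *rtnlb16-1* LD. The 4 called genes thus include both the most abundant GH3 gene and 1 with 5 reads in all in Col-0 LD.

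Most of the shoot meristem and flower markers were also higher in *rtnlb16-1* under LD. Of these 12 markers 8 were called higher in *rtnlb16-1* under LD and none lower, with a median log2 fold change of 4.68. None of the 12 was at 0 in a *rtnlb16-1* library, against 7, 5 and 7 at 0 in Col-0 LD libraries 47, 48 and 49, and 4 in Col-0 CLL library 66. *STM*, which keeps shoot meristem cells undifferentiated, had 351, 170 and 426 normalized counts in *rtnlb16-1* LD, against 0 in all 3 Col-0 LD libraries, and 183, 184 and 205 in *rtnlb16-1* CLL, against 266, 2.7 and 113 in Col-0 CLL. In Col-0 CLL the library with almost no *STM*, library 66, also had the least *GH3.2*, *GH3.3*, *GH3.5*, *GH3.6*, *GH3.9* and *GH3.17*, for instance 131 of *GH3.6* against 589 and 382 in libraries 65 and 67. The other groups were not all alike in this. In *rtnlb16-1* CLL library 70 had the lowest marker sum (572, against 774 and 739 in libraries 68 and 69). Its summed GH3 normalized counts were the highest there (1875, against 1346.5 and 1320). In Col-0 LD library 49 had the highest marker sum (100.1) and the lowest GH3 sum (499). Most of the Col-0 LD marker sums came from *AG* alone, with 64.4, 63.3 and 87.8 in libraries 47, 48 and 49. By the mean log2 value of the markers library 48 was the highest (1.67, against 1.18 and 1.21 in libraries 47 and 49). In *rtnlb16-1* LD both sums rose in the same order over libraries 50, 51 and 52. The marker sums there were 764, 842 and 1459, and the GH3 sums 1551, 1810 and 2174. The part of these markers in the GH3 result was not tested. Among the Aux/IAA genes there were both kinds, for instance *IAA29*, highest in library 66 (72.1, against 21.4 and 29.6 in libraries 65 and 67), and *IAA17*, lowest there (703, against 773 and 822). The 5 leaf markers were none of them called under LD, with log2 fold changes of -1.37 to -0.81 and sums of 1158019 to 2025774 normalized counts in *rtnlb16-1* LD, against 2613804 to 4663730 in Col-0 LD, and their part in the Aux/IAA result was not tested.

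**Figure D3:**
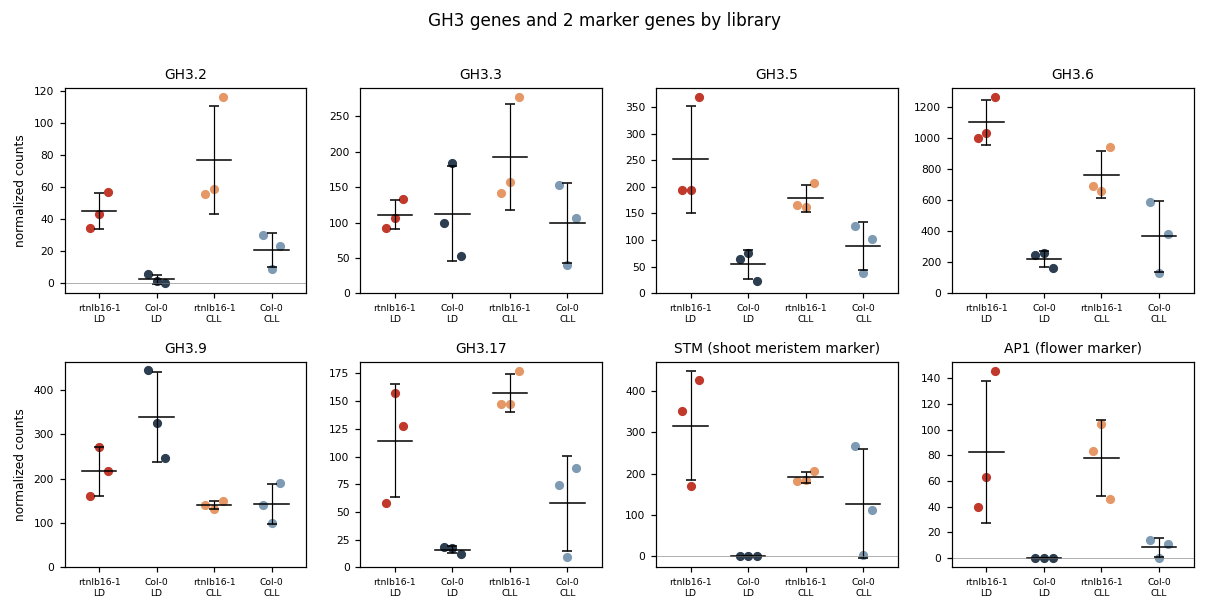
Normalized counts (linear axes) of 6 GH3 genes and of the marker genes *STM* and *AP1*, by library, with bars at the group mean ± SD (n = 3). *GH3.6* lies at 1005 to 1268 in *rtnlb16-1* LD, against 165 to 259 in Col-0 LD, and Col-0 CLL library 66 is the lowest point of its group in each GH3 panel.

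These calls differ in how firmly they stand. With libraries 68 and 69 merged, limma called 10 Aux/IAA genes lower and 3 GH3 genes higher, and the calls of *IAA17*, *IAA28* and *GH3.17* were lost. Fitted on the 2 LD groups alone, with fewer libraries to estimate the spread, limma called 4 Aux/IAA genes lower and 1 GH3 gene higher, and without Col-0 library 49 the counts were 6 and 1. On the recovered reads edgeR called the same 12 Aux/IAA genes and *IAA2* lower, and DESeq2 the same 12, and both called the same 4 GH3 genes higher. Over the 21 other fits the calls of *GH3.2*, *IAA3* and *IAA14* were kept in 20, *IAA1* in 19, *IAA7* in 18, *GH3.6* in 14, *IAA4* in 11, *GH3.5* in 10, *IAA17* and *IAA34* in 9, *IAA28* in 8 and *GH3.17* in 6.

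Under CLL none of the 37 members was called different between *rtnlb16-1* and Col-0 by limma, where 0.711% of all genes were called lower and 0.836% higher. With libraries 68 and 69 merged, limma also called none. Before adjustment, 7 members were higher and 1 lower with p under 0.05 by limma, against 2832 higher and 2568 lower of all 30388 genes. Of the GH3 genes edgeR called 3 higher (*GH3.2*, *GH3.6* and *GH3.17*) and DESeq2 1 (*GH3.2*), and neither called an Aux/IAA gene. The median log2 fold change was -0.05 over the Aux/IAA genes and 1.10 over the GH3 genes, against 0.03 over all genes.

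The genes with the widest gaps under LD lay close together under CLL. *IAA29* had 18.6, 25.2 and 42.5 normalized counts in *rtnlb16-1* CLL, against 21.4, 72.1 and 29.6 in Col-0 CLL. *IAA6* had 38.0, 36.2 and 27.7 in *rtnlb16-1* CLL, against 21.4, 45.7 and 43.4 in Col-0 CLL. *IAA5* had 15.1, 26.1 and 20.9 in *rtnlb16-1* CLL, against 14.4, 31 and 25.9 in Col-0 CLL. In these 3 genes the genotypes overlapped, with log2 fold changes of -0.39, -0.05 and -0.16 (standard errors 0.57, 0.40 and 0.41), and *IAA29* was 0.11 without library 66. *IAA19* had 192, 228 and 183 in *rtnlb16-1* CLL, against 232, 303 and 246 in Col-0 CLL (log2 fold change -0.37). *IAA1* had 167, 159 and 95.1 in *rtnlb16-1* CLL, against 32.3, 84.9 and 128 in Col-0 CLL, so that its log2 fold change of 0.94 (standard error 0.54) had the other sign from that under LD, without a call.

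Among the Aux/IAA genes *IAA16* and *IAA27* had the smallest p under CLL. *IAA16* had 3717, 3649 and 4394 normalized counts in *rtnlb16-1* CLL, against 2168, 2586 and 2542 in Col-0 CLL (log2 fold change 0.69, adjusted p = 0.033 from limma). *IAA27*, also called PAP2, had 713, 712 and 774 in *rtnlb16-1* CLL, against 1482, 1062 and 992 in Col-0 CLL (log2 fold change -0.66, adjusted p = 0.0747 from limma). Neither reached the limit on the fold, and both had the same sign under LD.

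The 4 GH3 genes called under LD had positive log2 fold changes under CLL too, and limma called none of them there. *GH3.6* had 694, 663 and 944 normalized counts in *rtnlb16-1* CLL, against 589, 131 and 382 in Col-0 CLL (log2 fold change 1.29, standard error 0.40, adjusted p = 0.0975 from limma). *GH3.17* had 147, 147 and 177 in *rtnlb16-1* CLL, against 74.5, 9.1 and 89.6 in Col-0 CLL (log2 fold change 1.94, standard error 0.65). *GH3.2* had 55.9, 58.9 and 116 in *rtnlb16-1* CLL, against 30, 9.1 and 23.1 in Col-0 CLL (log2 fold change 1.91, standard error 0.65). *GH3.5* followed with 166, 162 and 208 in *rtnlb16-1* CLL, against 126, 39.3 and 103 in Col-0 CLL (log2 fold change 1.14). Library 66, which also had the lowest sum of the meristem and flower markers in its group, set much of these differences, and without it the log2 fold changes were 0.67 for *GH3.6*, 0.93 for *GH3.17*, 1.43 for *GH3.2* and 0.64 for *GH3.5*. Of the 12 markers 3 were called higher in *rtnlb16-1* under CLL and none lower, and their part in the GH3 values was not tested.

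**Figure D4:**
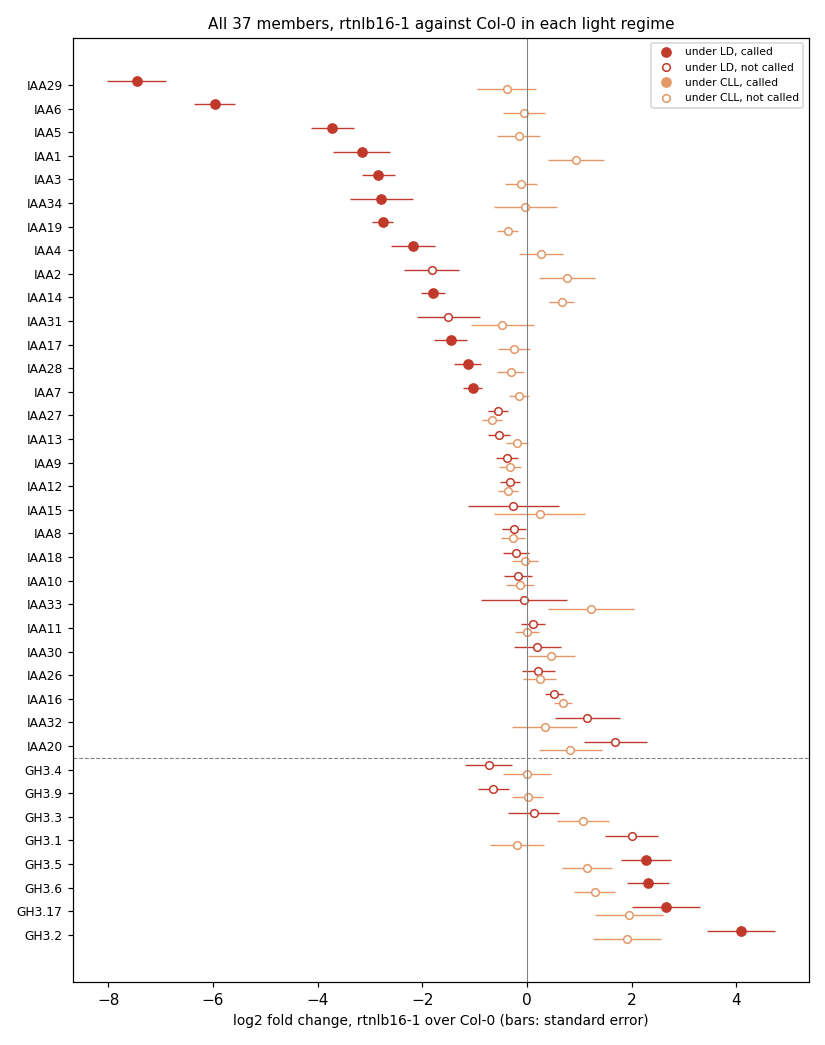
Log2 fold change of *rtnlb16-1* over Col-0 for each of the 37 members under LD and under CLL, with standard error bars and filled points for called values, Aux/IAA genes above the dashed line and GH3 genes below it. Under LD the 12 called Aux/IAA genes run from -7.46 to -1.04 and the 4 called GH3 genes from 2.28 to 4.09, and no CLL value is called.

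The test of the difference between the light regimes is the interaction of genotype and light, the log2 fold change of *rtnlb16-1* over Col-0 under LD minus that under CLL. It was negative and called for 7 Aux/IAA genes and for no GH3 gene, and positive and called for no member by limma, where 0.533% of all genes had a negative and 0.395% a positive call. The values were -7.07 for *IAA29*, -5.92 for *IAA6*, -4.10 for *IAA1*, -3.56 for *IAA5*, -2.73 for *IAA3*, -2.46 for *IAA14* and -2.40 for *IAA19*. With edgeR *IAA2* and *IAA4* were added to these 7, and with DESeq2 *IAA4*. At an unadjusted p under 0.05 from limma 13 Aux/IAA genes were negative and none positive, and 2 GH3 genes were positive. Of all 30388 genes 2339 were negative and 2477 positive at that threshold. The interactions of *IAA6* and *IAA19* were the ones called in each of the 20 other fits, and with libraries 68 and 69 merged the called genes were *IAA29*, *IAA6*, *IAA14* and *IAA19*.

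For the GH3 genes the interaction was not called by limma, edgeR or DESeq2. It was 2.18 for *GH3.2* (standard error 0.92), 1.14 for *GH3.5* (standard error 0.67), 1.02 for *GH3.6* (standard error 0.57) and 0.71 for *GH3.17* (standard error 0.93). So the GH3 difference between genotypes is not shown to be wider under LD than under CLL. *IAA34*, *IAA4*, *IAA17*, *IAA7* and *IAA28*, lower under LD, likewise had no interaction called by limma (-2.76, -2.45, -1.21, -0.89 and -0.82), though edgeR and DESeq2 called that of *IAA4*.

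Within Col-0, 7 Aux/IAA genes were higher and none lower under LD than under CLL, while among the GH3 genes 1 was lower and none higher, by limma. Over all genes 2.1% were called higher and 3.83% lower under LD. In Col-0 *IAA17* had 7025, 10396 and 13481 normalized counts under LD, against 773, 703 and 822 under CLL, 13.4 times as much. *IAA14* had 775, 1165 and 1008 under LD, against 122, 117 and 150 under CLL. Log2 fold changes in Col-0 were 3.7 for *IAA17*, 3.49 for *IAA29*, 3.25 for *IAA5*, 2.90 for *IAA14*, 2.89 for *IAA34*, 2.49 for *IAA6* and 2.1 for *IAA19*, and the LD libraries lay above the CLL libraries in each of these genes. *IAA16* had a log2 fold change of 1.00 with adjusted p = 0.00136 from limma, at the limit on the fold. *GH3.2* had 5.7, 1.8 and 0 under LD, against 30, 9.1 and 23.1 under CLL (log2 fold change -2.89), a call that was lost in 14 of 21 other fits, and the *IAA34* call was lost in 13 of 21. Fitted on the 2 Col-0 groups alone, with fewer libraries to estimate the spread, none of these 8 calls was kept, with adjusted p of 0.0135 to 0.0368 for the 7 Aux/IAA genes and 0.161 for *GH3.2* from limma. Merging libraries 68 and 69 left 6 Aux/IAA genes called higher by limma, without *IAA34*, and no GH3 gene lower. On the recovered reads edgeR and DESeq2 called *IAA1*, *IAA3* and *GH3.9* higher under LD as well, and edgeR *GH3.17* lower. In the same comparison 3 of the 12 meristem and flower markers were called lower and 1 higher (median log2 fold change -1.38), with *STM* at 0 in the 3 LD libraries, against 266, 2.7 and 113 under CLL, and 1 of the 5 leaf markers was called higher (median 1.19, all 5 positive). Their part in the result was not tested.

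Within *rtnlb16-1* the light regimes sorted the genes differently. Here 1 Aux/IAA gene was higher and 5 were lower under LD than under CLL, and no GH3 gene was called by limma, edgeR or DESeq2 or had an unadjusted p under 0.05 from limma. Over all genes 1.93% were called higher and 3.28% lower, and 8934 of 30388 had an unadjusted p under 0.05 from limma. *IAA17* was again higher, with 5282, 1962 and 4586 normalized counts under LD, against 656, 638 and 637 under CLL (log2 fold change 2.49). *IAA29*, by contrast, had 2.6, 2.6 and 0 under LD, against 18.6, 25.2 and 42.5 under CLL, 5 reads against 119, or 16.1 times as much under CLL (95% counting interval 6.71 to 50.5). *IAA6* had 2.6, 1.8 and 2.4 under LD, against 38.0, 36.2 and 27.7 under CLL (log2 fold change -3.43). *IAA3*, *IAA4* and *IAA28* fell by 1.65, 2.01 and 1.49 on the log2 scale. *IAA29* and *IAA6* were therefore higher under LD than under CLL in Col-0 and lower in *rtnlb16-1*, each called in both genotypes. With libraries 68 and 69 merged 2 of the 5 falls were called, those of *IAA6* and *IAA29*, while edgeR and DESeq2 added *IAA1* and *IAA2* to the falls. Fitted on the 2 *rtnlb16-1* groups alone, *IAA6* was the member still called by limma.

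**Figure D5:**
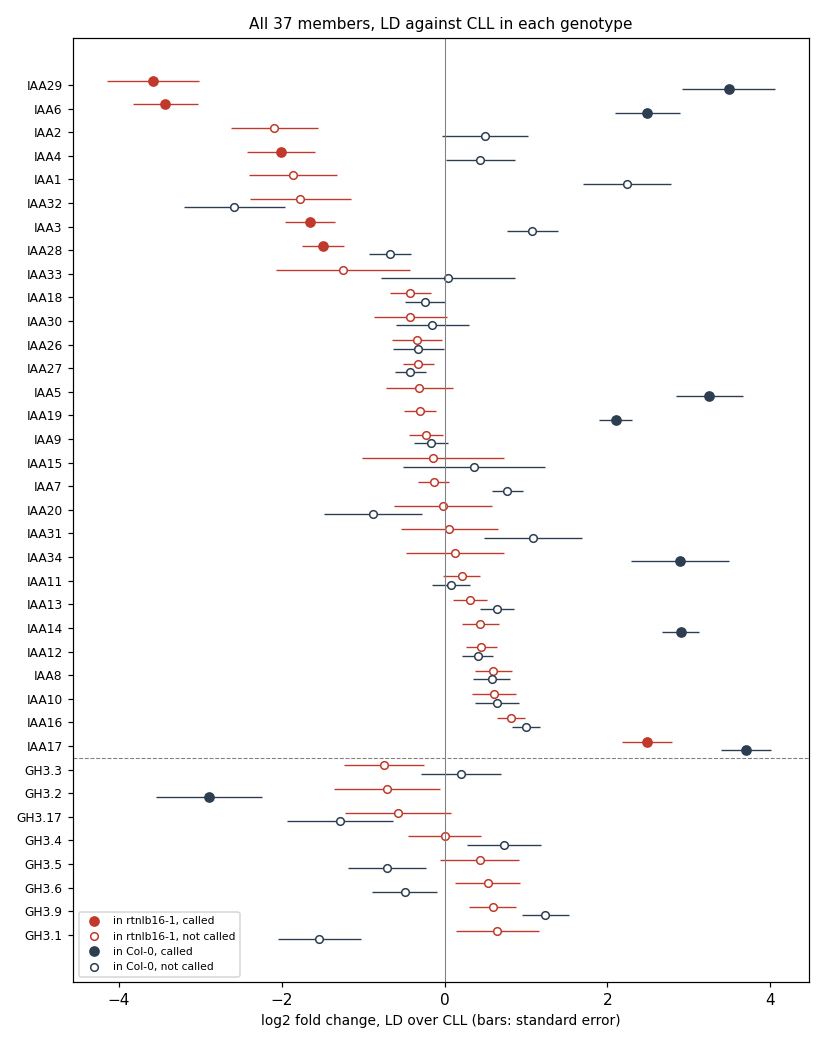
Log2 fold change of LD over CLL for each of the 37 members in *rtnlb16-1* and in Col-0, with standard error bars and filled points for called values, Aux/IAA genes above the dashed line and GH3 genes below it. *IAA29* lies at -3.58 in *rtnlb16-1* and at 3.49 in Col-0, and *IAA17* at 2.49 and 3.7.

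These comparisons share libraries, so a gene's values in them are not independent. Each of the 8 members called between the light regimes in Col-0 was also called between the genotypes under LD, and both comparisons use the Col-0 LD libraries.

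The rest of the auxin pathway was read from lists of receptors, ARFs, corepressors, and genes of auxin synthesis, transport and inactivation. Of the 6 auxin receptor genes (TIR1 and the AFBs) none was called between genotypes by limma. Their log2 fold changes were -0.26 to 0.67 under LD. In each light regime 1 of the 6 was higher if the limma p was left unadjusted and held below 0.05. By this looser rule 5278 of the 30388 genes tested were higher in *rtnlb16-1* under LD, and 2832 under CLL. Of 15 ARF genes 2 were higher under LD and none lower. *ARF6*, an activator of flower and stem growth, had 3894, 3547 and 4149 normalized counts in *rtnlb16-1* LD, against 1196, 1377 and 768 in Col-0 LD (log2 fold change 1.83), and *ARF1*, a repressor, had 3119, 2642 and 2665, against 1277, 1260 and 989 (log2 fold change 1.26). Of the 5 TOPLESS genes 2 were higher, *TPL* by 1.3 and *TPR2* by 1.05. No gene of these 3 lists was called lower under LD, where 5.41% of all genes were called lower and 6.0% higher. Under CLL no receptor, ARF or TOPLESS gene was called, where 0.711% of all genes were called lower and 0.836% higher. In lists this short the absence of a call is close to these shares.

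Auxin synthesis was split under LD, with 3 genes higher and 2 lower of 13 with reads. *YUC8*, a flavin monooxygenase gene of the last step of auxin synthesis and known to rise in warmth and shade, had 3.9, 6.2 and 14.3 normalized counts in *rtnlb16-1* LD, against 90.1, 141 and 49.4 in Col-0 LD (log2 fold change -3.42), and the other genes called in this list stayed under a mean of 50. Of 14 transport genes 4 were lower and 1 higher. The auxin efflux carriers *PIN4*, *PIN7* and *PIN3* fell by 2.04, 1.64 and 1.63, and the influx carrier *LAX1* by 1.48. *PIN4* had 2108, 981 and 1694 in *rtnlb16-1* LD, against 5425, 9089 and 4926 in Col-0 LD. Among 12 genes of auxin inactivation and release 2 were higher and 1 lower under LD. AT1G14130, a gene with no symbol in the annotation, had 486, 621 and 593 in *rtnlb16-1* LD, against 143, 107 and 182 in Col-0 LD, and was also called under CLL (log2 fold changes 1.99 and 1.64), and *ILL6*, an amidohydrolase gene, fell by 1.43 under LD.

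The remaining 11 GH3 genes act mostly on substrates other than auxin, and 2 were higher and 1 lower under LD. AT5G13370 had 2481, 3408 and 2297 normalized counts in *rtnlb16-1* LD, against 564, 514 and 562 in Col-0 LD, and 1106, 1131 and 1787 in *rtnlb16-1* CLL, against 209, 329 and 227 in Col-0 CLL, with log2 fold changes of 2.30 and 2.38. Limma called it in both light regimes. *PBS3* (AT5G13320), a GH3 enzyme of salicylic acid synthesis, fell by 2.12 under LD, with 16.8, 44.0 and 58.3 in *rtnlb16-1* LD, against 169, 165 and 136 in Col-0 LD.

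Of the 5 shade regulators 2 were lower under LD and none higher. *PIF4*, a transcription factor that drives elongation in shade and warmth, had 1215, 918 and 1191 normalized counts in *rtnlb16-1* LD, against 4305, 5877 and 4046 in Col-0 LD (log2 fold change -2.09), and 280, 289 and 549 in *rtnlb16-1* CLL, against 734, 856 and 921 in Col-0 CLL. *ATHB2*, a homeodomain gene that marks the shade response, had 49.0, 181 and 86.9 in *rtnlb16-1* LD, against 275, 267 and 421 in Col-0 LD (log2 fold change -1.76). Between the light regimes in Col-0 3 of the 5 were higher under LD, among them *PIF4* by 2.49. *PIF4*, *YUC8*, *IAA19* and *IAA29* were each higher under LD than under CLL in Col-0 and lower in *rtnlb16-1* than in Col-0 under LD. Within *rtnlb16-1*, however, *PIF4* was higher under LD than under CLL, while *IAA29* was lower (log2 fold change -3.58). A link among these picked genes was not tested.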

How the data were processed

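Leaf RNA was sequenced in 12 libraries. The deposited signal values come from HTSeq 0.6.1p1 gene counts of reads aligned with STAR 2.5.0a (TAIR10, Araport11), each divided by the DESeq2 size factor that the authors computed for its library. 100% of them are whole reads times 1 factor (relative tolerance 1e-06). The counting strand is not given in the sources used here, and 9 members overlap a gene on the other strand and 1 (*IAA34*) on the same. Of 37336 rows, 30388 had reads and were fitted with limma 3.58.1 (R 4.3.3) on log2 values with a pseudocount of 1, as 4 group means. Called means an absolute log2 fold change above 1 and an adjusted p under 0.01 over all genes. The 12 libraries share 1 estimate of the spread. edgeR 4.0.16 and DESeq2 1.42.0 were run on the recovered reads. All members are accounted for, called members are named, and other lists give up to 4 called genes with a group mean of 50 or more. The members and lists were chosen with earlier results of these data known. Branches of the family follow sequence similarity as commonly drawn. Exon lengths, sequences and coordinates are from the RefSeq TAIR10.1 annotation, which held 37051 of the IDs. The methods call the libraries of a group biological replicates, with no word on separate growths, so p-values measure the spread between these libraries. Intervals cover counting error only.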

Additional observations from a re-analysis of the deposited data

Results flagged for a closer look

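For 7 members the difference between *rtnlb16-1* and Col-0 itself differed between LD and CLL by the interaction term of limma. It was -7.07 for *IAA29*, -5.92 for *IAA6*, -4.10 for *IAA1*, -3.56 for *IAA5*, -2.73 for *IAA3*, -2.46 for *IAA14* and -2.40 for *IAA19*, on the log2 scale and with 3 libraries per group. All 7 were also called lower in *rtnlb16-1* than in Col-0 under LD, so a gap between their LD libraries comes with the choice of genes. Under CLL the genotypes overlapped in *IAA29*, *IAA6*, *IAA1*, *IAA5* and *IAA3*, while *IAA14* lay higher in *rtnlb16-1* CLL (205, 182 and 229 normalized counts, against 122, 117 and 150 in Col-0 CLL) and *IAA19* lower, neither of them called.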

How the results depend on the processing

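Of the 37 called values of members over the 5 comparisons, none changed sign in any alternative, and 7 were called in all of them, *IAA5*, *IAA6*, *IAA19* and *IAA29* under LD, *IAA6* between the light regimes in *rtnlb16-1*, and the interactions of *IAA6* and *IAA19*. All 37 were called with edgeR, DESeq2, the filter on low values and upper-quartile scaling. With only the groups compared in the fit, 4 Aux/IAA genes were lower and 1 GH3 gene higher under LD, no Aux/IAA gene was higher (0) and no GH3 gene lower (0) under LD in Col-0, and 0 were higher and 1 lower in *rtnlb16-1*. With libraries 68 and 69 merged, 2 Aux/IAA genes were lower under LD in *rtnlb16-1*, 4 interactions were called, and 0 GH3 genes were lower in Col-0, as with a pseudocount of 5 (0). Under CLL GH3 genes were called higher 3 times by edgeR, 1 time by DESeq2 and 1 time at an unadjusted p under 0.01, which also gave 1 positive GH3 interaction. Between the light regimes in Col-0, 1 GH3 gene was higher with the filter on low values, edgeR, DESeq2, an adjusted p under 0.05 and an unadjusted p under 0.01, and 2 were lower with edgeR and at an unadjusted p under 0.01, while 1 Aux/IAA gene was lower at an adjusted p under 0.05 and at an unadjusted p under 0.01. In *rtnlb16-1* 2 Aux/IAA genes were higher without a minimum fold. Leaving out each library in turn gave 6 to 10 Aux/IAA genes lower and 1 to 4 GH3 genes higher under LD, 0 to 1 Aux/IAA and 0 to 1 GH3 genes lower in Col-0 between the regimes, 1 to 4 Aux/IAA genes lower in *rtnlb16-1*, and 2 to 5 interactions. The 6 came without Col-0 library 49 and the 4 without library 66. Without libraries 47, 51, 65 or 67 the GH3 count was 2, and without 48 it was 3, and without 49, 50, 52, 68, 69 or 70 it was 1. *GH3.3* under LD changed sign with edgeR (-0.01) and DESeq2 (-0.02) and ran from -0.31 to 0.58 with libraries left out, and *IAA29* under CLL from -0.75 to 0.11. The cause was not tested, beyond the fewer libraries that fits of 2 groups and left-out libraries have. No paired analysis was possible because the library numbers are not shared between groups. Genes under about 3 reads per library, such as *IAA29* and *IAA6* in *rtnlb16-1* LD, are limited by depth.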
